A study of Mus musculus with 24 samples.

Results

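Cell cycle and DNA replication genes were followed as 39 genes taken by symbol from the 25369 genes that each file lists, and all 39 were found. They comprise 8 replication genes (Mcm2, Mcm3, Mcm4, Mcm5, Mcm6, Mcm7, Pcna and Rrm1), 23 mitotic genes from Mki67 to Racgap1, 3 genes of nucleotide synthesis (Rrm2, Tyms and Tk1) and 5 genes of the step from G1 into S phase (Ccne1, Ccne2, Ccnd1, Ccnd2 and E2f1). Of these, 37 had enough reads to be tested; Ccnb1 and Bub1 did not.

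The muscles were left quadriceps of mice aged 25 weeks. CMD mice (disease state Lama2-CMD) were compared with WT mice (disease state Healthy) within each of 4 backgrounds. Lama2-CMD is a congenital muscular dystrophy caused by defects of Lama2, which encodes a laminin chain around myofibres; the labels name no allele. The backgrounds have the strain labels C57BL/6J (B6), CMD-67 (67), CMD-87 (87) and DBA/2J (D2), and the series design names the middle pair BXD-67 and BXD-87; BXD strains were inbred from crosses between the other pair. There were 3 libraries in each of 8 groups, with the numbers 4 to 6 (B6 CMD), 1 to 3 (B6 WT), 10 to 12 (67 CMD), 7 to 9 (67 WT), 16 to 18 (87 CMD), 13 to 15 (87 WT), 22 to 24 (D2 CMD) and 19 to 21 (D2 WT). The labels do not say that libraries of a group came from separate animals, so p-values measure the spread between these samples.

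Total exon reads ran from 32292613 to 51715975 per library. Ckm, the muscle creatine kinase that marks myofibres, had 429046 to 1214701 reads in every library. Lama2 fell in CMD muscle of B6 (log2 fold change -1.004, adjusted p = 0.00642) and 87 (-0.89, adjusted p = 0.00939). It was not called in 67 (0.04, adjusted p = 0.912) or D2 (-0.37, adjusted p = 0.244), so there the transcript level does not check the genotype label. Reads of 4 Y-linked genes went against the sex label in 4 D2 libraries (CMD 22 and 24, WT 19 and 21), and no sex term was fitted in the values given first. Whether these D2 libraries carry the right labels was not settled here, and all D2 values take the labels as given. Male labels belonged to libraries 1, 4, 6, 7, 13, 17, 18, 19 and 21, and all others were labelled female. By Y-linked reads only CMD libraries 22 and 24 were male in D2, and only WT library 7 in 67. Sex was thus not balanced between CMD and WT in any strain and is partly confounded with CMD. Values with a sex term are given as alternatives. On the first principal component of log2(CPM + 0.5) over all tested genes the D2 CMD libraries lay at 34.3 to 60.0 and the D2 WT libraries at -22.4 to -0.137, without overlap. Library 16 (87 CMD) stood apart from its group, with the lowest level of the 3 in 32 of the 39 genes and 0 reads of 5 of them. Library 23 (D2 CMD) held 163 CPM of 14 summed macrophage markers, against 549 and 484 CPM in the other D2 CMD libraries. CPM are counts scaled to a common normalised library size.

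A cell that divides first loads the Mcm2 to Mcm7 helicase onto origins in G1, then unwinds and copies its DNA around the Pcna clamp with nucleotides made by ribonucleotide reductase (Rrm1 with Rrm2), thymidylate synthase (Tyms) and thymidine kinase (Tk1). Cyclins D and E with their kinases release E2F factors, which switch on the replication genes. The DREAM and B-Myb complexes, through a promoter element called CHR, and NF-Y, through CCAAT boxes, govern the mitotic genes. Adult myofibres are postmitotic; in injured or dystrophic muscle the dividing cells are mainly satellite cells and their myoblast progeny, fibro-adipogenic progenitors, endothelial cells and leukocytes.

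The promoters of a few members are printed to show the sequence elements by which replication and mitotic genes differ. Each is the run of 150 bases before the gene's start in RefSeq (GRCm38.p6), 5′ to 3′ on the gene's own strand. Capitals mark matches, on either strand, to an E2F site (TTTCCCGC, TTTGGCGC, TTTCGCGC or TTTGCCGC), to CHR (TTTGAA or TTCGAA) or to CCAAT. In Mcm6 and at the left end of Mcm5 an E2F match overlaps another, and in Mcm5 the first of the pair begins before the printed run. Mcm6 and Mcm5 are replication genes, and Cdk1, Kif11, Cdc20 and Aurka are mitotic genes.
Mcm6, chr1:128359706-128359855, minus strand: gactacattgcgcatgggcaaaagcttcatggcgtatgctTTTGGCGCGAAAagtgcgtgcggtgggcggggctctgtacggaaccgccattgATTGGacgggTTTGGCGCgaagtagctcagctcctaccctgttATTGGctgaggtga
Mcm5, chr8:75109359-75109508, plus strand: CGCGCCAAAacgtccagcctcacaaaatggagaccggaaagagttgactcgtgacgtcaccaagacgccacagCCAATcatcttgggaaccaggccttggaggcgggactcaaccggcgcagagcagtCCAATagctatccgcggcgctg
Cdk1, chr10:69352913-69353062, minus strand: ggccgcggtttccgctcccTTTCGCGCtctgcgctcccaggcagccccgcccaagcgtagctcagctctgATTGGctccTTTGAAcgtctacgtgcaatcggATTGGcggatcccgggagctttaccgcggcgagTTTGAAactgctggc
Kif11, chr19:37376232-37376381, plus strand: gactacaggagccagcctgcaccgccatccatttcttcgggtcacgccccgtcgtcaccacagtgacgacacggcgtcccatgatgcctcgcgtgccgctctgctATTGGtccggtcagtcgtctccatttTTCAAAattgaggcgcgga
Cdc20, chr4:118437344-118437493, minus strand: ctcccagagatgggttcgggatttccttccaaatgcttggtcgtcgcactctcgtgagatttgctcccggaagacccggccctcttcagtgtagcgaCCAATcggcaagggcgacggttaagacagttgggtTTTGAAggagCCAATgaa
Aurka, chr2:172370571-172370720, minus strand: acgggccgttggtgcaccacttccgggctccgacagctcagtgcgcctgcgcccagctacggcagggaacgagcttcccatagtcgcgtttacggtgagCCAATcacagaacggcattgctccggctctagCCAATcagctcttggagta

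Whole promoters of 300 bases (250 before to 50 after the start) were in the table for 31 of the 39 genes, 7 of the replication class and 19 of the mitotic class. E2F letters stood in 4 of 7 replication genes (57.1%) and in 1 of 19 mitotic genes (5.26%, Cdk1), against 2.605% of all 27025 symbols in the table. CHR letters stood in 2 of 7 replication genes (28.6%) and in 15 of 19 mitotic genes (78.9%), against 21.7% of all symbols. CCAAT stood in 7 of 7 and 17 of 19 (89.5%), against 41.1%. Of the 3 nucleotide synthesis genes, 1 held CCAAT and none the other letters. TTCGAA reads the same on both strands and is found at once on either. Aurka has a CHR match after its start, outside the printed run. A match describes letters only.

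**Figure D1:**
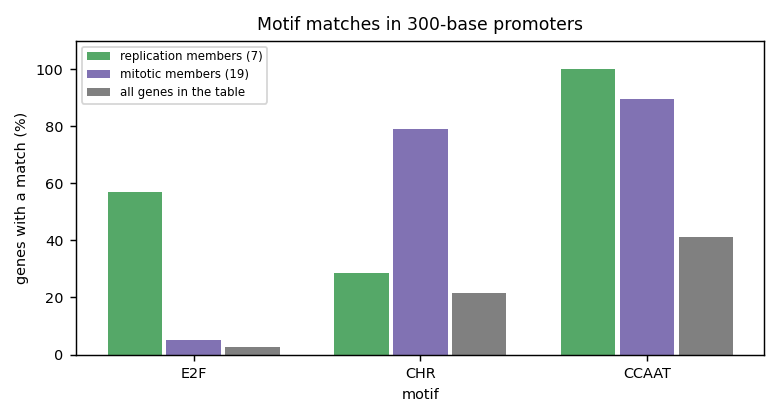
Share of genes (%, vertical axis) whose 300-base promoter holds E2F, CHR or CCAAT letters, for 7 replication members, 19 mitotic members and all symbols of the RefSeq table. The E2F bar is tallest for replication members (57.1%) and the CHR bar for mitotic members (78.9%).

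Levels were low in both genotypes and spanned a wide range. On the length-scaled TPM of the files, the median over the 12 CMD libraries was 28.5 TPM for Pcna and 14.4 TPM for Rrm1, against 23.02 and 18.9 TPM over the 12 WT libraries. After these in the WT order came Aurka (4.31 TPM in CMD, 9.88 TPM in WT), Mcm2 (3.38 and 5.91 TPM), Ube2c (3.79 and 5.35 TPM) and Mcm7 (5.18 and 4.67 TPM). Most mitotic genes were below 1 TPM: the proliferation antigen Mki67 had 0.212 TPM in CMD and 0.098 TPM in WT, the mitotic kinase Cdk1 had 0.170 and 0.0653 TPM, and Cenpf, a kinetochore protein and the lowest of the WT order, had 0.0414 and 0.0219 TPM. Aurka, Ube2c and Tpx2 thus stood above the other mitotic genes in WT muscle, and neighbouring medians further down the order lie within each other's ranges over libraries. Fewer cells of a type and less RNA per cell cannot be told apart in whole muscle.

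Within B6, 3 of the 37 tested genes rose in CMD muscle and 3 fell. That is 16.2% called, against a background of 18.4% of the 14789 genes tested (8.07% raised and 10.4% lowered; edgeR quasi-likelihood test, adjusted p below 0.05). In 67, 6 rose and 4 fell, 27.0% called against 21.7% (11.4% raised and 10.3% lowered). In 87, 4 rose and 4 fell, 21.6% against 20.8% (11.5% raised and 9.38% lowered). In D2, 4 rose and 3 fell, 18.9% against 20.2% (11.2% raised and 9.03% lowered). At an unadjusted p below 0.05 there were 13 members in B6, 15 in 67, 12 in 87 and 13 in D2, where the background was 33.1%, 34.7%, 33.9% and 35.4% of all tested genes. With all libraries the share called lay near the background in every strain, and the calls went both ways. The counts rest on library 16 beyond its own strain. Without it B6 had 7 raised and 5 lowered members and 3798 genes called, against 3 and 3 members and 2724 genes with it, and without libraries 16 and 23 it had 8 and 5 members and 3933 genes. D2 had 6 and 4 members and 4268 genes without library 16, and 87 had 2 and 2 members and 2202 genes. The B6 members gained without library 16 were Mcm2, Top2a, Ccna2, Kif11, Tk1 and Ccnd1. The median log2 fold change of the 37 was 0.20 in B6, 0.29 in 67, -0.04 in 87 and 0.60 in D2, beside medians over all tested genes of 0.01, 0.00, 0.01 and 0.03. All 3 CMD libraries lay above all 3 WT libraries in 13 of the 37 genes in B6 (35.1%, against 19.7% of all tested genes), 9 in 67 (24.3%, against 22.2%), 3 in 87 (8.11%, against 15.5%) and 17 in D2 (45.9%, against 21.4%). They lay below in 5 (13.5%, against 21.6%), 6 (16.2%, against 21.8%), 5 (13.5%, against 15.1%) and 4 (10.8%, against 21.5%).

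**Figure D2:**
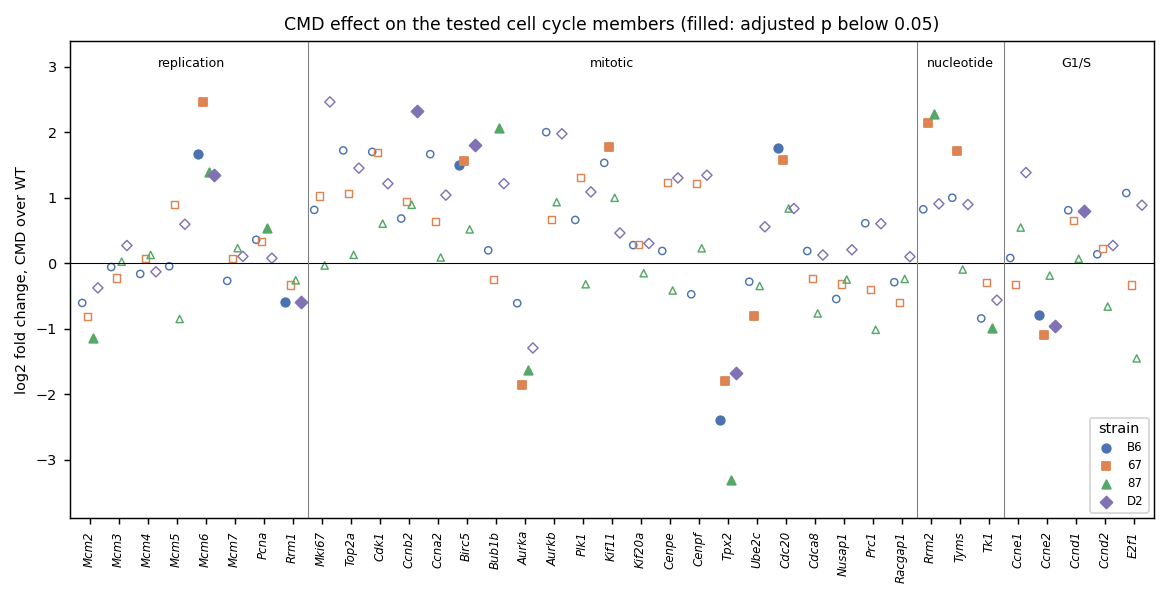
Log2 fold change of CMD over WT (vertical axis) for each of the 37 tested genes, by class and strain; filled symbols have an adjusted p below 0.05. Mcm6 is filled above 0 and Tpx2 filled below 0 in all 4 strains, while most other genes scatter around 0 or above it with open symbols.

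Among the replication genes Mcm6 alone was called in every strain. Mcm6 (ENSMUSG00000026355) encodes a subunit of the replicative helicase. Its level was 5.61, 8.46 and 6.80 CPM in B6 CMD, against 2.52, 2.12 and 1.92 CPM in B6 WT. In 67 it was 10.03, 4.12 and 8.45 CPM in CMD, against 2.40, 0.390 and 1.28 CPM in WT. The groups did not overlap in either strain. It was 9.99, 5.25 and 4.59 CPM in 87 CMD, against 2.19, 2.62 and 2.69 CPM in 87 WT. In D2 the level was 1.16, 1.49 and 1.93 CPM in CMD, against 0.779, 0.362 and 0.645 CPM in WT. Again every CMD library lay above every WT library, but the highest D2 CMD library was lower than 3 of 3 WT libraries of 87. The log2 fold changes were 1.67 ± 0.45 (SE) in B6, 2.47 ± 0.46 in 67, 1.40 ± 0.44 in 87 and 1.35 ± 0.47 for the D2 pair, with adjusted p of 0.0154, 0.00122, 0.0295 and 0.0486. The 67 call was kept with any 1 of the 24 libraries left out (adjusted p up to 0.00942). The B6 call was lost without library 2, 3 or 5 (up to 0.0622), the 87 call without 13, 14, 15 or 16 (up to 0.161, where library 16 is left out and the change is 0.97), and the D2 call in 18 of 24 such fits (up to 0.193) and with sex from Y-linked reads (0.0755).

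The strain difference in Mcm6 was present in healthy muscle too. Mean levels were 6.96 ± 1.43 CPM in B6, 7.53 ± 3.06 in 67, 6.61 ± 2.94 in 87 and 1.53 ± 0.39 in D2 CMD muscle (SD, n = 3 each), and 2.19 ± 0.30, 1.36 ± 1.01, 2.4995 ± 0.268 and 0.595 ± 0.213 CPM in WT muscle. Levels differed across the 4 CMD groups (F test, adjusted p = 0.00451) and across the 4 WT groups (adjusted p = 0.0303), with D2 lowest in both. The size of the CMD effect on Mcm6 was not called different between any pair of strains: D2 minus B6 was -0.32 ± 0.65 (adjusted p = 0.854) and 67 minus 87 was 1.07 ± 0.62 (adjusted p = 0.435). The WT difference was lost without library 14, 15, 19, 20 or 21 (adjusted p up to 0.119).

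**Figure D3:**
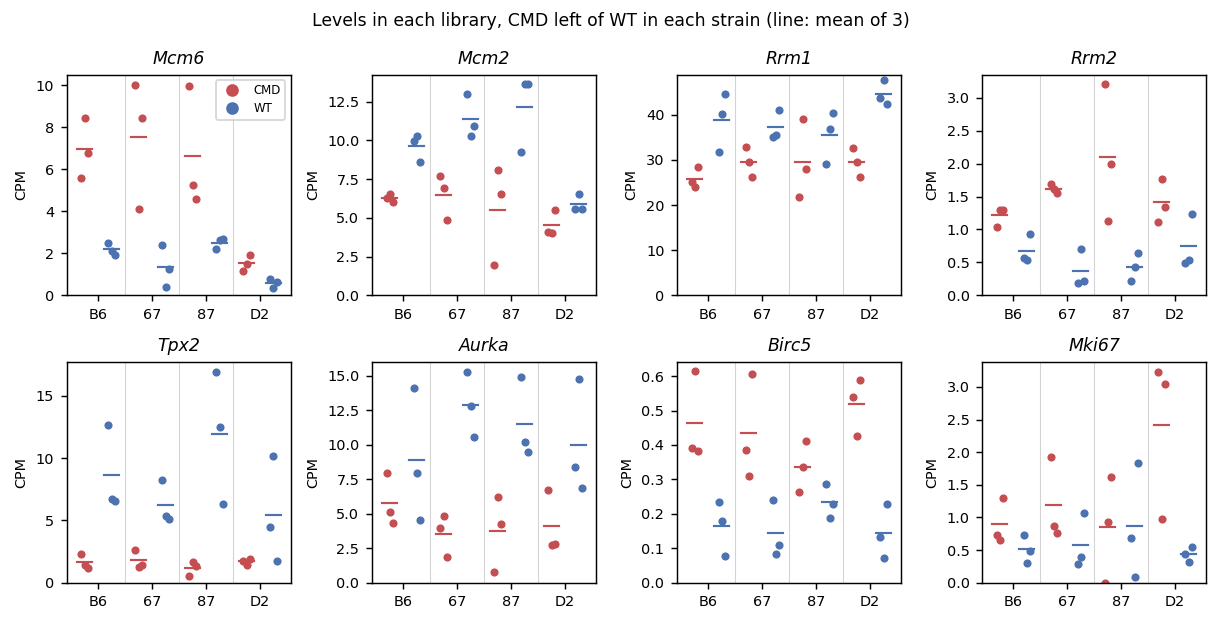
CPM per library (vertical axes) of 8 genes in the 4 strains, with CMD libraries left of WT libraries and a line at the mean of 3. Mcm6 and Rrm2 points are higher in CMD, Mcm2, Rrm1, Tpx2 and Aurka points mostly lower, and the highest Mki67 points are 2 D2 CMD libraries.

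The other helicase subunits did not follow Mcm6. Mcm2 was lower in every CMD library than in every WT library of its strain, and it fell in 87. Its levels were 1.97, 8.09 and 6.54 CPM in 87 CMD, against 9.24, 13.7 and 13.6 CPM in 87 WT (log2 fold change -1.14 ± 0.32, adjusted p = 0.0151). Group means in the other strains were 6.31 ± 0.25 CPM in B6 CMD and 9.61 ± 0.91 in B6 WT, 6.502 ± 1.44 in 67 CMD and 11.4 ± 1.43 in 67 WT, and 4.54 ± 0.85 in D2 CMD and 5.90 ± 0.53 in D2 WT (SD, n = 3 each). The changes there were -0.61, -0.81 and -0.38 (adjusted p = 0.182, 0.0707 and 0.405). Without library 16, Mcm2 was called lowered in B6 (-0.59, adjusted p = 0.0269) and 67 (-0.82, adjusted p = 0.00343) as well. The lowest 87 value was library 16, and the 87 call was lost without library 15 (adjusted p = 0.0536). Mcm3, Mcm4 and Mcm7 overlapped between genotypes in each strain, with log2 fold changes from -0.27 to 0.27.

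Mcm5 had changes of both signs over the strains. It was at 0.341, 0.730 and 0.738 CPM in 87 CMD, against 0.834, 0.918 and 1.52 CPM in 87 WT. In D2 it was at 1.30, 1.61 and 1.72 CPM in CMD, against 1.201, 0.965 and 0.895 CPM in WT. The CMD libraries lay below the WT libraries in 87 and above them in D2, and neither change was called (-0.85, adjusted p = 0.101, and 0.60, adjusted p = 0.227). The 67 levels were 1.43, 1.55 and 0.684 CPM in CMD, against 0.747, 0.669 and 0.544 CPM in WT, overlapping through library 12 (0.90, adjusted p = 0.0810, and 0.0354 without that library). In B6 the change was -0.05. The CMD effect in 67 minus that in 87 was 1.75 ± 0.51 (adjusted p = 0.160). The test of the difference in CMD effect over the 4 strains gave an adjusted p of 0.118. Across the 4 CMD groups Mcm5 levels did differ (adjusted p = 0.0396), a call lost without library 16 (0.153) and in 15 of the other leave-one-out fits.

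Rrm1, the large subunit of ribonucleotide reductase, fell in B6 and D2. It was at 25.0, 23.9 and 28.3 CPM in B6 CMD, against 31.8, 40.1 and 44.6 CPM in B6 WT. In D2 it was at 32.7, 29.6 and 26.2 CPM in CMD, against 43.7, 47.6 and 42.3 CPM in WT. No library of the lower group reached the other group in these strains. The changes were -0.59 ± 0.18 in B6 (adjusted p = 0.0259) and -0.60 ± 0.18 in D2 (adjusted p = 0.0232). In 67 the change was -0.33 (adjusted p = 0.186), also without overlap, and in 87 it was -0.26 (adjusted p = 0.317). The B6 call was lost without library 2, 3, 4 or 5 (adjusted p up to 0.117) and the D2 call without 20 or 24 (up to 0.0787) or with sex from Y-linked reads (0.0502).

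Pcna, the sliding clamp, rose in 87. It was at 31.8, 20.5 and 20.0001 CPM in 87 CMD, against 16.2, 16.1 and 17.3 CPM in 87 WT (log2 fold change 0.54 ± 0.17, adjusted p = 0.0298). Library 16 held the highest value, and without it the change was 0.28 (adjusted p = 0.230). In B6 and 67 the CMD libraries also lay above the WT libraries, with uncalled changes of 0.36 and 0.33 (adjusted p = 0.149 and 0.178), and in D2 the change was 0.08 (adjusted p = 0.778). With sex from Y-linked reads the B6 change was called (0.44, adjusted p = 0.0382), and with sex as labelled it was not (0.0507).

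The nucleotide synthesis genes split between the inducible reductase subunit and thymidine kinase. Rrm2, the small subunit that limits the reductase in S phase, rose in 67 and 87. It was at 1.69, 1.61 and 1.55 CPM in 67 CMD, against 0.187, 0.697 and 0.218 CPM in 67 WT. In 87 it was at 3.198, 1.12 and 1.99 CPM in CMD, against 0.214, 0.432 and 0.646 CPM in WT. Neither pair of groups overlapped. The changes were 2.14 ± 0.51 (adjusted p = 0.00612) and 2.27 ± 0.50 (adjusted p = 0.00351), and both calls were kept with any 1 library left out (adjusted p up to 0.0413 and 0.0219). With only the libraries compared, the 87 change of 2.27 was not called (adjusted p = 0.0777). In B6 and D2 the changes of Rrm2 were 0.82 and 0.91 (adjusted p = 0.245 and 0.174). With sex from Y-linked reads the D2 change was called (1.38, adjusted p = 0.0397), and with sex as labelled it was not (0.48, adjusted p = 0.498). The partner subunit Rrm1 did not rise in any strain.

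Tyms, which makes thymidylate, rose in 67, where it was at 1.06, 1.10 and 1.26 CPM in CMD, against 0.240, 0.502 and 0.299 CPM in WT (1.71 ± 0.47, adjusted p = 0.0149). The CMD libraries were all higher than the WT libraries; the call was lost without library 7 or 9 (adjusted p up to 0.0661). It was not called in B6, 87 (-0.10) or D2 (0.90). Tk1, the salvage kinase, fell in 87, at 0.682, 2.08 and 2.19 CPM in CMD, against 3.84, 3.08 and 2.98 CPM in WT (-0.99 ± 0.34, adjusted p = 0.0428). Without library 16 that change was -0.63 (adjusted p = 0.147), and the call was also lost without library 6, 10, 11, 13, 14 or 15. In B6, 67 and D2 the change of Tk1 was -0.84, -0.30 and -0.56, none called. The B6 change was called with sex from Y-linked reads (-1.04, adjusted p = 0.0225) and without library 16 (-0.83, adjusted p = 0.0230).

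Of the genes of entry into S phase, Ccne2 (cyclin E2) fell in B6, 67 and D2. It was at 3.70, 2.41 and 2.80 CPM in B6 CMD, against 6.25, 4.39 and 4.72 CPM in B6 WT. In 67 it was at 4.62, 3.02 and 2.4996 CPM in CMD, against 6.00, 8.39 and 7.26 CPM in WT. D2 had 3.22, 1.95 and 2.09 CPM in CMD, against 4.09, 5.96 and 4.04 CPM in WT. In these strains every CMD library was lower than every WT library. The changes were -0.78 ± 0.27 (adjusted p = 0.0483), -1.09 ± 0.27 (adjusted p = 0.00759) and -0.96 ± 0.27 (adjusted p = 0.0177), and in 87 it was -0.19 (adjusted p = 0.665). The 67 call was kept with any 1 library left out; the B6 call was lost in 17 of 24 such fits (adjusted p up to 0.188) and the D2 call without library 20, 23 or 24 (up to 0.0791).

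Its relative Ccne1 (cyclin E1) showed no call by edgeR with all libraries and no sex term. In D2 Ccne1 was at 0.761, 0.956 and 0.892 CPM in CMD, against 0.423, 0.193 and 0.375 CPM in WT, without overlap and with a change of 1.38 (adjusted p = 0.0637; 0.0388 by DESeq2 and 0.0206 with sex as labelled). Ccnd1 (cyclin D1), the growth factor sensor of G1, rose in D2, at 11.1, 12.8 and 15.9 CPM in CMD, against 8.39, 8.69 and 5.81 CPM in WT (0.80 ± 0.28, adjusted p = 0.0489). The same size of change in B6 (0.81) had an adjusted p of 0.0514, again with all CMD libraries above the WT libraries. Only 71.6% of the Ccnd1 reads were unique, and with unique reads alone the D2 change was 0.73 (adjusted p = 0.0643); with sex from Y-linked reads it was 0.69 (adjusted p = 0.119), and 19 of 24 leave-one-out fits lost the call. Ccnd2 (cyclin D2) had changes from -0.66 to 0.27, none called with all libraries and no sex term. With sex as labelled the 87 change was called (-0.75, adjusted p = 0.0432), and with sex from Y-linked reads it was not (0.0523).

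E2f1, the activating E2F factor of this set, had positive changes in some strains and negative ones in others, without a call in any with all libraries, edgeR and no sex term. It was at 0.913, 1.07 and 0.865 CPM in B6 CMD, against 0.437, 0.688 and 0.233 CPM in B6 WT. In 87 it was at 0.105, 0.197 and 0.431 CPM in CMD, against 1.07, 0.648 and 0.354 CPM in WT. The B6 groups did not overlap and the 87 groups did, by 1 WT library. Its log2 fold change was 1.07 for B6 (adjusted p = 0.154), -0.33 for 67 (0.676), -1.45 for 87 (0.0600) and 0.89 for D2 (0.202). The 87 change was called with sex as labelled (-1.61, adjusted p = 0.0329), with sex from Y-linked reads (-1.58, 0.0369), by DESeq2 (-1.44, 0.0389), and without library 15 (0.0422) or 18 (0.0186). Across the 4 CMD groups the E2f1 level differed (adjusted p = 0.0138), with D2 highest at 1.32 ± 0.39 CPM and 87 lowest at 0.244 ± 0.168 CPM (SD, n = 3 each). Without libraries 16 and 23 that adjusted p was 0.0673.

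The mitotic genes held the most uniform fall and several rises. Tpx2 (ENSMUSG00000027469), a spindle assembly factor that activates Aurora A, fell in all 4 strains. It was at 2.30, 1.39 and 1.22 CPM in B6 CMD, against 12.6, 6.73 and 6.56 CPM in B6 WT. In 67 it was at 2.66, 1.26 and 1.45 CPM in CMD, against 8.27, 5.35 and 5.09 CPM in WT. Values in CMD were well below WT, without overlap. In 87 it was at 0.551, 1.69 and 1.33 CPM in CMD, against 16.9, 12.4 and 6.33 CPM in WT. D2 had 1.78, 1.45 and 1.88 CPM in CMD, against 4.45, 10.2 and 1.77 CPM in WT. Only in D2 did the groups overlap, through WT library 21. The changes were -2.40 ± 0.53, -1.80 ± 0.52, -3.32 ± 0.55 and -1.67 ± 0.52 in the order B6, 67, 87 and D2, with adjusted p of 0.00566, 0.0191, 0.000586 and 0.0283. The B6 and 87 calls were kept with any 1 library left out. In 67 the call was lost without library 7, 11 or 12 (adjusted p up to 0.0785) and in D2 without 20, 22, 23 or 24 (up to 0.240, where library 20 is left out and the change is -0.89).

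Aurka, the spindle pole kinase that Tpx2 activates, fell in 67 and 87. It was at 3.94, 4.82 and 1.87 CPM in 67 CMD, against 15.3, 12.8 and 10.5 CPM in 67 WT. In 87 it was at 0.760, 6.18 and 4.27 CPM in CMD, against 14.9, 10.2 and 9.50 CPM in WT. CMD lay below WT without overlap. The changes were -1.86 ± 0.56 (adjusted p = 0.0230) and -1.63 ± 0.55 (adjusted p = 0.0430). The D2 groups also did not overlap, with an uncalled change of -1.29 (adjusted p = 0.0972), and in B6 it was -0.61 (adjusted p = 0.461). With sex from Y-linked reads the D2 change was called (-1.94, adjusted p = 0.0147), as it was without library 16 (0.0261) or 22 (0.0387). It was not called with sex as labelled (-1.04, adjusted p = 0.157). Without library 16 the 87 change was -1.15 (adjusted p = 0.124); that call was also lost without library 10, 13, 14, 15 or 18, and the 67 call without 7, 10 or 12 (up to 0.0964).

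Ube2c, the ubiquitin-conjugating enzyme of the anaphase-promoting complex, fell in 67, at 4.18, 4.65 and 3.53 CPM in CMD, against 7.79, 6.997 and 6.96 CPM in WT (-0.81 ± 0.27, adjusted p = 0.0369). Its changes were -0.28 in B6, -0.35 in 87 and 0.56 in D2, none called, and the 67 call was lost without any 1 of the 67 libraries or library 23 (adjusted p up to 0.124).

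Genes beside these members on the chromosome were read as well, since no source used here states whether counting used strand. In the RefSeq order Mylk2, the skeletal muscle myosin light chain kinase, lies next to Tpx2, and it fell in all 4 strains (-1.71, -1.44, -1.20 and -1.30, adjusted p = 0.00765, 0.0149, 0.0352 and 0.0261). It averaged 559 CPM in B6 CMD, against 1825 CPM in B6 WT. Tnnc2, the fast skeletal troponin C, lies next to Ube2c and fell in 67 (-0.99, adjusted p = 0.00109), the strain where Ube2c fell. Tnnc2 changed by -0.33 in B6, -0.45 in 87 and -0.31 in D2 without a call. Fam210b and Cstf1, the neighbours of Aurka, were not called in 67 (-0.03 and -0.05), and in 87 Cstf1 rose (0.63, adjusted p = 0.0222). Bcl2l1, on the other side of Tpx2, rose in 87 (1.999, adjusted p = 0.0102). Ints8, next to Ccne2, fell in all 4 strains (-0.45, -0.43, -0.46 and -0.37). Dars, next to Mcm6, was called in no strain. The part of neighbouring transcripts in the Tpx2, Ube2c and Ccne2 values was not tested.

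All other called mitotic genes rose. Birc5 (survivin, a subunit of the chromosomal passenger complex) rose in B6, 67 and D2. It was at 0.391, 0.614 and 0.382 CPM in B6 CMD, against 0.235, 0.179 and 0.0778 CPM in B6 WT. In 67 it was at 0.387, 0.310 and 0.605 CPM in CMD, against 0.240, 0.0836 and 0.109 CPM in WT. D2 had 0.540, 0.425 and 0.589 CPM in CMD, against 0.133, 0.0724 and 0.229 CPM in WT. None of these groups overlapped. The changes were 1.51 ± 0.49 (adjusted p = 0.0377), 1.56 ± 0.49 (adjusted p = 0.0282) and 1.80 ± 0.47 (adjusted p = 0.0124), and in 87 it was 0.52 (adjusted p = 0.468). The D2 call was lost without library 20 (adjusted p = 0.0750), the B6 call without 2, 3, 4, 5 or 6 (up to 0.157) and the 67 call without 8, 9, 10 or 12 (up to 0.122).

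Ccnb2 (cyclin B2, a partner of Cdk1) rose in D2, at 0.480, 0.513 and 0.505 CPM in CMD, against 0.111, 0.121 and 0.0624 CPM in WT (2.32 ± 0.53, adjusted p = 0.00578). The CMD libraries lay close together and far above the WT libraries, and the call was kept with any 1 library left out (adjusted p up to 0.0373). Its changes in B6, 67 and 87 were 0.68, 0.94 and 0.89, none called. Kif11, the kinesin that pushes spindle poles apart, rose in 67, at 1.45, 1.45 and 0.868 CPM in CMD, against 0.293, 0.502 and 0.299 CPM in WT (1.78 ± 0.55, adjusted p = 0.0275). In B6 its CMD libraries also lay above the WT libraries, at 1.72, 1.55 and 1.53 CPM, against 0.604, 0.717 and 0.337 CPM, with a change of 1.53 (adjusted p = 0.0533). The 67 call was lost without library 7, 9, 10 or 11 (up to 0.101).

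Cdc20, an activator of the anaphase-promoting complex, was called in B6 (1.76 ± 0.60, adjusted p = 0.0467) and 67 (1.58 ± 0.55, adjusted p = 0.0479). It was at 0.313, 0.410 and 0.204 CPM in B6 CMD, against 0.101, 0.120 and 0.0519 CPM in B6 WT. In 67 it was at 0.362, 0.455 and 0.421 CPM in CMD, against 0.0800, 0.167 and 0.163 CPM in WT. CMD libraries lay above WT libraries in both. These calls were close to the threshold: 18 and 21 of 24 leave-one-out fits lost them (adjusted p up to 0.166 and 0.168), as did DESeq2 (0.0542 and 0.0531). Bub1b, a spindle checkpoint kinase, was called raised in 87 (2.06 ± 0.66, adjusted p = 0.0319), at 2.39, 0.281 and 0.513 CPM in CMD, against 0.310, 0.0540 and 0.375 CPM in WT. Library 16 alone was high and the groups overlapped; without it the change was 0.68 (adjusted p = 0.471).

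The usual proliferation markers Mki67, Top2a and Cdk1 were not called by edgeR with all libraries and no sex term, and some were called in the alternatives. Mki67 was at 3.22, 0.973 and 3.05 CPM in D2 CMD, against 0.445, 0.314 and 0.541 CPM in D2 WT, without overlap (2.46 ± 0.85, adjusted p = 0.0654). Library 23 held the lowest of those CMD values. In B6 and 67 its changes were 0.81 and 1.03, and in 87, where library 16 had 0 reads of Mki67, -0.04. Top2a, the topoisomerase of chromosome condensation, was at 1.56, 0.991 and 1.35 CPM in D2 CMD, against 0.512, 0.362 and 0.541 CPM in D2 WT. The CMD libraries lay above the WT libraries in B6, 67 and D2 for Top2a and for Cdk1, with changes of 1.72, 1.06 and 1.45 for Top2a (adjusted p = 0.0735, 0.246 and 0.0928) and 1.70, 1.69 and 1.22 for Cdk1 (adjusted p = 0.155, 0.124 and 0.217). In 87 both overlapped, with changes of 0.13 and 0.60. Without library 16, Mki67 was called raised in D2 (2.42, adjusted p = 0.0178) and Top2a in B6 (1.74, 0.0147) and D2 (1.42, 0.0234). Mki67 in D2 was also called by DESeq2 (adjusted p = 0.0265) and with sex as labelled (0.0454), and not with sex from Y-linked reads (0.222). Top2a was called by DESeq2 in B6 (1.75, adjusted p = 0.0379). With only the libraries compared it was called in B6 (adjusted p = 0.0438) and D2 (0.0285).

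For the remaining mitotic genes the values ran from high to little changed. Aurkb, the kinase of the passenger complex, had changes of 2.003 in B6 and 1.98 in D2 (adjusted p = 0.181 and 0.132), and Ccna2 (cyclin A2) 1.67 and 1.04 (adjusted p = 0.0950 and 0.243), all without overlap. Without library 16 the Ccna2 change in B6 was called (adjusted p = 0.0156). Plk1 ran from -0.32 in 87 to 1.31 in 67, Cenpe from -0.42 in 87 to 1.30 in D2 and Cenpf from -0.48 in B6 to 1.35 in D2. Kif20a, Cdca8, Nusap1 and Racgap1 had changes between -0.77 and 0.30. Prc1, which bundles the central spindle, differed across the 4 CMD groups (adjusted p = 0.00065), at 1.92 ± 0.55 CPM in D2 CMD against 0.673 ± 0.322 in B6, 0.511 ± 0.177 in 67 and 0.268 ± 0.147 in 87 CMD (SD, n = 3 each). That call was kept with any 1 library left out. In WT muscle D2 was also highest for Prc1, at 1.26 ± 0.12 CPM, against 0.438 to 0.682 CPM in the other strains, without a call (adjusted p = 0.0750). Ccnb1 and Bub1 were untested; Ccnb1 lay at 0.300, 0.159 and 0.185 CPM in D2 CMD, against 0.0890, 0.0483 and 0.0208 CPM in D2 WT.

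Set against each other, the replication genes were centred near 0 and the mitotic genes above it in 3 strains. The median log2 fold change of the 8 replication genes was -0.11 in B6, 0.07 in 67, 0.08 in 87 and 0.09 in D2. That of the 21 tested mitotic genes was 0.61, 0.66, -0.04 and 1.04. The gap between the medians, mitotic minus replication, was thus 0.72 in B6, 0.59 in 67, -0.11 in 87 and 0.95 in D2. Among the mitotic genes tested, 15, 13, 10 and 19 of 21 had a positive change, and in D2 11 of 21 (52.4%) had every CMD library above every WT library, against 21.4% of all tested genes. In 87 none of the 21 did, against 15.5%. The filter on low counts left Ccnb1 and Bub1 out of these numbers. With both included, 13 of the 23 mitotic genes in D2 had every CMD library above every WT library, and 0 in 87. Among the 8 replication genes, 2, 5, 5 and 5 had a positive change in B6, 67, 87 and D2. In each strain 2 of the 8 had every CMD library above every WT library. The median change over all tested genes was 0.01, 0.00, 0.01 and 0.03. No test was made of these shares. Without library 16 the 87 mitotic median was 0.44, with 16 of 22 tested genes positive, and without libraries 16 and 23 together it was 0.45.

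All 23 mitotic genes together summed to 23.5 ± 3.7 CPM in B6 CMD and 31.3 ± 10.6 in B6 WT, 20.1 ± 4.6 in 67 CMD and 34.2 ± 3.7 in 67 WT, 19.9 ± 7.8 in 87 CMD and 39.2 ± 5.5 in 87 WT, and 28.5 ± 4.2 in D2 CMD and 28.5 ± 9.2 in D2 WT (SD, n = 3 each). The sum was thus lower in every CMD library than in every WT library in 67 and 87, and it overlapped in B6 and D2. Aurka, Tpx2 and Ube2c, a trio singled out after the values were seen, made up 54.7 ± 8.4% of the summed mitotic CPM in B6 CMD and 77.0 ± 4.4% in B6 WT (SD, n = 3 each). The share was 47.1 ± 1.8% in 67 CMD and 76.9 ± 6.1% in 67 WT, 55.6 ± 7.3% in 87 CMD and 78.8 ± 9.0% in 87 WT, and 47.2 ± 2.5% in D2 CMD and 70.0 ± 11.7% in D2 WT. A sum over all mitotic genes is therefore mostly a sum over these genes in WT muscle. The trio holds the mitotic genes called lowered, so the direction of the remainder follows in part from that choice and is given as a description. The other 20 mitotic genes summed to 16.7, 11.8 and 16.9 CPM in D2 CMD, against 8.16, 6.78 and 8.57 CPM in D2 WT. In B6 they summed to 9.97, 10.5 and 10.8 CPM in CMD, against 8.33, 6.40 and 6.07 CPM in WT. In 67 the sums were 12.8, 11.1 and 7.95 CPM in CMD, against 7.04, 6.72 and 9.66 CPM in WT, and in 87 they were 4.95, 8.20 and 13.8 CPM in CMD, against 7.43, 5.89 and 10.9 CPM in WT. The 67 and 87 groups overlapped, and library 16 was the lowest of all 24. The 8 replication genes summed to 77.8 ± 4.1 CPM in B6 CMD and 87.0 ± 7.3 in B6 WT, 86.6 ± 9.4 in 67 CMD and 87.6 ± 4.4 in 67 WT, 85.0 ± 7.3 in 87 CMD and 84.3 ± 12.2 in 87 WT, and 73.5 ± 5.4 in D2 CMD and 86.7 ± 5.3 in D2 WT. Rrm1 and Pcna were the largest terms of this sum in every library, so it describes them more than the Mcm genes. In D2, Rrm1 alone was at 32.7, 29.6 and 26.2 CPM in CMD, against 43.7, 47.6 and 42.3 CPM in WT.

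**Figure D4:**
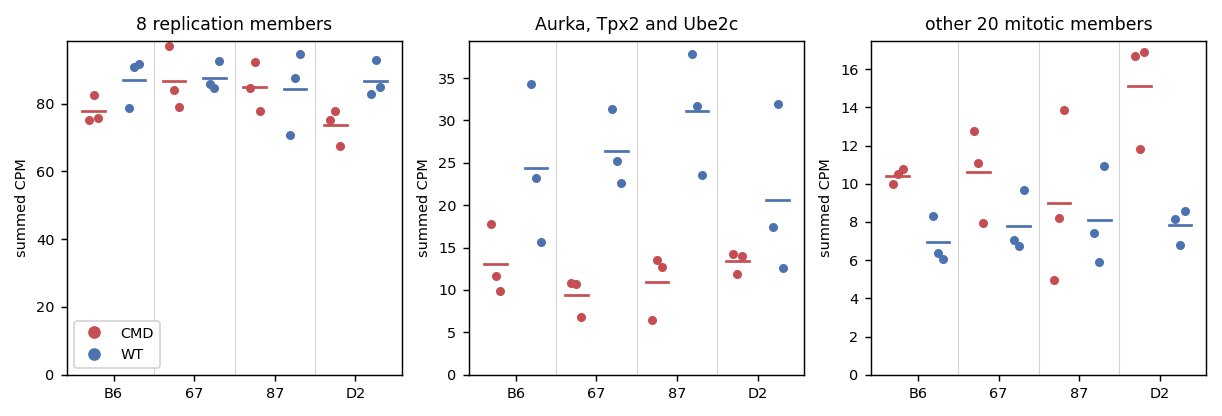
Summed CPM per library (vertical axes) of the 8 replication genes, of Aurka, Tpx2 and Ube2c, and of the other 20 mitotic genes, with CMD left of WT in each strain and a line at the mean of 3. The other mitotic genes reach 16.7 and 16.9 CPM in 2 D2 CMD libraries, above all others, while the replication sums overlap between genotypes in B6, 67 and 87. The 3 genes were set apart after their values were seen, so the other mitotic sums are a description.

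Whether the CMD effect differed between strains was tested for each gene. In the F test over the 4 strains, 0 of the 37 were called, against 4.67% of all tested genes (edgeR). At an unadjusted p below 0.05 there were 4 (E2f1, Mcm5, Ube2c and Prc1), while 22.3% of all genes reached it. DESeq2 called 3, E2f1 (adjusted p = 0.0232), Mcm5 (0.0472) and Ube2c (0.0493). Its background was also larger, with 1732 genes called in this test, against 690 by edgeR. In the 6 pair tests none of the 37 was called. There the background was 0.00676% for 67 minus B6 and for 87 minus B6, 3.62% for D2 minus B6, 0.142% for 67 minus 87, 1.28% for D2 minus 67 and 7.9% for D2 minus 87. At an unadjusted p below 0.05 the members numbered 0, 4, 2, 6, 2 and 6 of 37 in the same order, where 8.53%, 13%, 17.9%, 14.2%, 14.5% and 24.4% of all tested genes reached it. The lowest adjusted p of any pair was for E2f1, D2 minus 87 (0.0534). Levels across the 4 WT groups were called for 2 of 37, Mcm6 and Bub1b, against 8.66% of all genes, and levels across the 4 CMD groups for 5 of 37, Prc1, Mcm6, E2f1, Ccnd1 and Mcm5, against 28.3%. Bub1b was lowest in D2 WT at 0.132 ± 0.050 CPM, against 0.561 ± 0.111 in B6 WT (adjusted p = 0.0483), and that call was lost in 19 of 24 leave-one-out fits (up to 0.163). The Ccnd1 call (0.0302) was lost without library 4, 16, 17, 23 or 24 (up to 0.130).

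Regulators outside the 39 genes were read from lists, whose shares called stand beside 18.4% of all tested genes in B6, 21.7% in 67, 20.8% in 87 and 20.2% in D2; no test was made of these shares. Of 7 CDK inhibitors, 1 fell in B6, 2 rose and 1 fell in 67, 1 rose and 1 fell in 87, and 2 rose and 1 fell in D2 (14.3%, 42.9%, 28.6% and 42.9% called). Cdkn1a, the p53-induced inhibitor, rose in 67, 87 and D2 (3.32, 3.22 and 2.55, adjusted p = 0.00158, 0.00189 and 0.0084). It was at 127, 114 and 122 CPM in 67 CMD, against 5.25, 21.2 and 9.68 CPM in 67 WT, and the groups were far apart. In 87 it was at 360, 75.9 and 66.2 CPM in CMD, against 19.5, 18.8 and 15.7 CPM in WT, with library 16 highest. Cdkn2a, whose products restrain cyclin D kinases and stabilise p53, rose in 67 (3.46, adjusted p = 0.0304) and D2 (4.44, adjusted p = 0.0271). Cdkn1b, the inhibitor of quiescent cells, fell in B6, 67 and D2 (-0.63, -0.90 and -0.65, adjusted p = 0.00652, 0.000442 and 0.00477). Its level was 23.2, 28.2 and 24.6 CPM in 67 CMD, against 39.1, 49.9 and 52.4 CPM in 67 WT.

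Among 18 pocket protein, E2F and DREAM genes, 1 rose and 4 fell in B6, 1 and 2 in 67, 3 and 2 in 87, and 3 and 4 in D2 (27.8%, 16.7%, 27.8% and 38.9% called). E2f8, an atypical repressor E2F that is itself induced in S phase, rose in all 4 strains (2.53, 5.33, 2.64 and 2.82, adjusted p = 0.0224, 0.000389, 0.0137 and 0.0111). In 67 it was at 2.44, 1.43 and 1.97 CPM in CMD, against 0.0267, 0 and 0.109 CPM in WT, where the 3 WT libraries held 5 reads in all. In D2 it was at 0.220, 0.708 and 1.65 CPM in CMD, against 0.156, 0.121 and 0.0832 CPM in WT, and no strain overlapped. Tfdp1, the dimer partner of E2F factors, fell in all 4 strains (-0.49, -0.89, -0.77 and -0.47, adjusted p = 0.029, 0.000595, 0.00156 and 0.0324), as did E2f6, a repressor E2F (-0.34, -0.50, -0.42 and -0.70, adjusted p = 0.0412, 0.00403, 0.0124 and 0.000524). Only 8 of 24 leave-one-out fits kept the B6 call of E2f6 (adjusted p up to 0.217). For Tfdp1, 19 kept the B6 call and 20 the D2 call. With only the libraries compared, the 87 calls of E2f8, Tfdp1 and E2f6 were lost. Of 7 G1 cyclin and kinase genes, 2 rose and 1 fell in B6, 3 and 2 in 67, 1 and 2 in 87, and 2 and 1 in D2 (42.9%, 71.4%, 42.9% and 42.9% called). Cdk4, the cyclin D kinase, rose in all 4 (0.32, 0.36, 0.44 and 0.30, adjusted p = 0.0314, 0.0151, 0.00394 and 0.0377), and 20 of 24 leave-one-out fits lost its D2 call. Larger rises in that list were called for Cdk6 in B6 and 67 (1.27 and 1.73) and for Ccnd3 in 67 and D2 (0.89 and 1.09).

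Further lists covered replication and mitosis. Of 17 origin genes 16 were tested, and 1 rose and 1 fell in B6 and in 67, 1 rose in 87, and 2 rose and 2 fell in D2 (12.5%, 12.5%, 6.25% and 25% called). Orc3, a subunit of the origin recognition complex, fell in B6, 67 and D2 (-0.58, -0.77 and -0.51, adjusted p = 0.0184, 0.00257 and 0.0287). Cdt1, the loader of the Mcm helicase, rose in 67, with overlap, and in D2 (1.45 and 1.66, adjusted p = 0.0358 and 0.0175), and without libraries 16 and 23 the D2 call was lost (adjusted p = 0.0894). Gins2 was called raised in B6, 87 and D2, but only 2.66% of its reads were unique and its values are uncertain. Of 27 replication fork genes, 1 rose and 1 fell in B6 and 2 fell in each of the other strains (7.41% called in each strain). Of 43 further mitosis genes 31 were tested, and 1 rose and 2 fell in B6, 2 and 2 in 67, 1 rose in 87 and 3 rose in D2 (9.68%, 12.9%, 3.23% and 9.68% called). Ckap2, a spindle microtubule protein, rose in 67, 87 and D2 (2.46, 2.64 and 3.39, adjusted p = 0.0214, 0.0124 and 0.00305). Spc24, a kinetochore subunit, fell in B6 and 67 (-0.78 and -1.41, adjusted p = 0.0256 and 0.000503).

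Markers of other cell types were read beside the mitotic genes. Shares called are in the order B6, 67, 87 and D2, where 18.4%, 21.7%, 20.8% and 20.2% of all tested genes were called. Of 14 macrophage markers, all tested and none at 0 in any library, 1 rose in B6, 5 in 67, 1 in 87 and 9 in D2 (7.14%, 35.7%, 7.14% and 64.3%), and none fell. Their sum was 228 to 313 CPM in B6 CMD and 88.5 to 266 CPM in B6 WT, 224 to 344 in 67 CMD and 98.6 to 160 in 67 WT, 122 to 225 in 87 CMD and 126 to 233 in 87 WT, and 163 to 549 in D2 CMD and 99.9 to 171 in D2 WT. Library 23 was the lowest D2 CMD library in both this sum (163 CPM) and the sum of the other 20 mitotic genes (11.8 CPM), and library 16 was the lowest 87 CMD library in both (122 and 4.95 CPM). In 67 CMD the order was otherwise. Library 12 had the lowest sum of the other 20 mitotic genes (7.95 CPM) but the most reads of Cd68 (592) and Adgre1 (321) in that group. The macrophage markers of library 16 did not move together: it had 1478 reads of Cd68, the most of all 24 libraries, and 33 reads of Adgre1, the fewest. Of 12 satellite cell and myoblast markers, 5 rose and 1 fell in B6, 6 rose in 67, 5 rose and 2 fell in 87, and 6 rose in D2 (50%, 50%, 58.3% and 50% called). Their sum was 107 to 150 CPM in B6 CMD and 61.9 to 83.5 in B6 WT, 184 to 316 in 67 CMD and 54.6 to 75.8 in 67 WT, 99.2 to 161 in 87 CMD and 66.5 to 80.6 in 87 WT, and 129 to 547 in D2 CMD and 98.7 to 120 in D2 WT. Pax7, which defines satellite cells, had 10 to 140 reads in every library, and the fusion factors Mymk or Mymx were at 0 in 5 WT libraries. Of 10 fibro-adipogenic and fibroblast markers, 1 rose in B6, 3 in 67 and 1 in D2, and 3 fell in 87 (10%, 30%, 30% and 10% called). Their sum was 1101 to 1239 CPM in B6 CMD and 512 to 1079 in B6 WT, 968 to 1398 in 67 CMD and 588 to 886 in 67 WT, 179 to 721 in 87 CMD and 704 to 876 in 87 WT, and 1149 to 1757 in D2 CMD and 518 to 852 in D2 WT. Of 10 endothelial markers, 2 rose in B6, 1 fell in 87 and 2 fell in D2 (20%, 0%, 10% and 20% called). They summed to 332 to 427 CPM in B6 CMD and 279 to 315 in B6 WT, 203 to 402 in 67 CMD and 251 to 307 in 67 WT, 226 to 300.4 in 87 CMD and 252 to 323 in 87 WT, and 288 to 346 in D2 CMD and 360.0 to 434 in D2 WT.

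Of 10 markers of T, B and NK cells 6 were tested, and 1 rose in B6, 1 in 67 and 1 in D2 (16.7%, 16.7%, 0% and 16.7% called). Their sum was 1.57 to 2.27 CPM in B6 CMD and 0.658 to 1.18 in B6 WT, 1.92 to 4.01 in 67 CMD and 0.781 to 1.15 in 67 WT, 1.15 to 3.86 in 87 CMD and 0.594 to 2.73 in 87 WT, and 2.14 to 7.23 in D2 CMD and 0.893 to 1.25 in D2 WT. At least 1 of them was at 0 in 13 libraries. Cd3e, a defining gene of T cells, had 1 to 36 reads. Of 12 myofibre markers, 5 fell in B6, 3 rose and 7 fell in 67, 2 rose and 4 fell in 87, and 2 fell in D2 (41.7%, 83.3%, 50% and 16.7% called). They summed to 136930 to 160581 CPM in B6 CMD and 235911 to 266894 in B6 WT, 133870 to 149363 in 67 CMD and 257314 to 266189 in 67 WT, 135794 to 199297 in 87 CMD and 220963 to 247347 in 87 WT, and 118812 to 183472 in D2 CMD and 199743 to 217314 in D2 WT. On this normalised scale the myofibre sum was thus lower in every CMD library than in every WT library of its strain. These sums are not shares of the raw reads. Of 7 erythroid markers 5 were tested, and none was called in any strain. Over all tested genes the shares called were 18.4% in B6, 21.7% in 67, 20.8% in 87 and 20.2% in D2. The part of these cell types in the mitotic values was not tested.

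**Figure D5:**
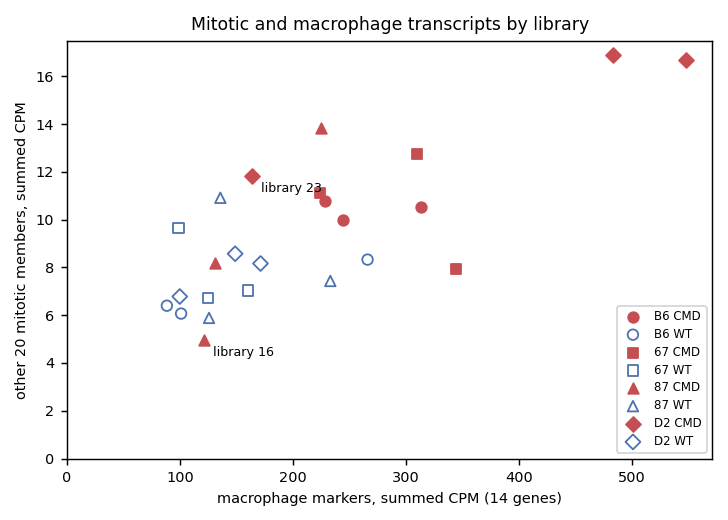
Summed CPM of the other 20 mitotic genes (vertical axis) against summed CPM of 14 macrophage markers (horizontal axis), 1 point per library, filled for CMD and open for WT. D2 CMD libraries 22 and 24 lie highest on both axes, while libraries 23 and 16 lie at the low end of their groups. Library 12 is the lowest of 67 CMD on the vertical axis (7.95 CPM), although it had the most Cd68 reads of that group (592). The vertical sum leaves out 3 genes set apart after their values were seen.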

How the data were processed

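Libraries were made from left quadriceps RNA with a stranded mRNA kit, per the labels' protocols, and reads were aligned to GRCm39 (mm39), per the submitters' processing notes. No source used here names the aligner or counter. For each library the authors deposited, per the file headers, total exon read counts, unique exon read counts and TPM per gene. TPM (the authors' values, scaled by length to a fixed total) served only to compare levels between genes. Files were joined by gene ID.

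Total exon counts were tested with edgeR 4.0.16 in R 4.3.3 (TMM, filterByExpr with a minimum count of 10 and a minimum total of 15, glmQLFit and glmQLFTest, 1 coefficient for each of 8 groups). This kept 14789 genes. P-values were adjusted by Benjamini-Hochberg over all of them, with a threshold of 0.05. The code was tested on simulated data. All members were named. From other lists, up to 3 called genes per strain with the largest change and no overlap were picked, along with genes those picks led to. Not every pick is named. The members and lists were chosen with earlier results of these data known.

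Alternatives were each library left out, libraries 16 and 23 left out together, a sex term as labelled or from Y-linked reads, no filter, unique reads, DESeq2 1.42.0, only the libraries compared, a log2 change of at least 1, and other class memberships. Promoters came from RefSeq (GRCm38.p6), a different build from the files, matched by symbol.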

Additional observations from a re-analysis of the deposited data

Results flagged for a closer look

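Bub1, a spindle checkpoint kinase with too few reads to be tested, ran in opposite directions in 2 strains. Over 3 libraries it had 2 reads in B6 CMD and 9 reads in B6 WT, and 28 reads in D2 CMD and 5 reads in D2 WT. Every CMD library lay below every WT library in B6 and above every WT library in D2; the difference between the strains was not tested.

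Reads of Y-linked genes entered the comparisons only as an alternative sex term. They were present in 2 D2 CMD libraries labelled female, with 4927 reads in library 22 and 4858 reads in library 24, and nearly absent from 2 D2 WT libraries labelled male, with 1 read in library 19 and 0 reads in library 21. The other 13 libraries labelled female held 0 to 18 such reads.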

How the results depend on the processing

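No called result reversed its direction in the alternatives run. With any 1 library left out, genes called ran from 1139 to 3798 in B6, 1921 to 4245 in 67, 1832 to 3741 in 87 and 1511 to 4268 in D2. Members raised ran from 0 to 7, 2 to 6, 1 to 4 and 1 to 6 in the same order, and members lowered from 1 to 5, 1 to 5, 2 to 5 and 0 to 4. The mitotic minus replication median ran from 0.393 to 0.906, 0.392 to 0.825, -0.713 to 0.315 and 0.575 to 1.10, so its sign was not fixed in 87. Strain differences in the CMD effect ran from 356 to 1168 genes and 0 to 1 members, WT levels across strains from 562 to 1963 genes and 0 to 4 members, and CMD levels across strains from 2388 to 5276 genes and 3 to 8 members.

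Without Mki67, Top2a and Ccna2 the median difference was 0.348 in B6 and 0.629 in D2. Without Aurka, Tpx2 and Ube2c, a choice added after seeing the data, it was 0.913 in 67. With sex from Y-linked reads it was 0.419 in D2, and WT levels were called for 1 member. With sex as labelled, 1555 genes and 1 member differed in the CMD effect, and 1 member in WT levels. With no filter, 1 member was raised in B6, 2 in D2, and 1 differed in WT levels. DESeq2 raised 5 members in B6, called 1732 genes and 3 members for the CMD effect differences, and 2184 genes and 4 members for WT levels. With only the libraries compared, 87 had 355 genes called, 0 members raised and 1 lowered, D2 had 8 raised and 1 lowered, and CMD levels differed for 1776 genes and 3 members. Without libraries 16 and 23, 8 members were raised and 5 lowered in B6, 2 and 2 in 87, and 1 lowered in D2; the 87 median difference was 0.309, WT levels differed for 2014 genes and 4 members, and CMD levels for 2 members. With a log2 change of at least 1, B6 had 932 called genes, 67 had 1504, 87 had 1289 and D2 had 1413, with 1 member lowered in B6 and 1 in D2. The cause of these shifts was not tested. Some member counts here stand without the count of all genes called in the same fit. Such counts have no background beside them and say nothing about the members as a set.

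No paired analysis was made. The library numbers run from 1 to 24 without repeats, so they cannot show whether samples of different groups were paired. Ccnb1 and Bub1 had too few reads to be tested.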
